A study of Xenopus tropicalis with 12 samples.

Results

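The brains of Xenopus tropicalis tadpoles at the climax of metamorphosis (Nieuwkoop-Faber stage NF62) were compared with those of premetamorphic tadpoles (NF50). The comparison used 6 of the series' 12 libraries, namely replicates 1, 2 and 3 at NF62 and replicates 1, 3 and 4 at NF50. All came from wild-type animals bought from a commercial breeder, with no treatment named in the labels. Each was made from total RNA of brain tissue microdissected around the hypothalamus, with the thalamus and the preoptic area. The other 6 libraries, 3 each of prometamorphic tadpoles (NF56) and of animals at the end of metamorphosis (NF66), shared in the estimate of the spread and are given only where the course of a gene is described. The series' design calls the libraries biological replicates, and how many brains went into a library was not stated in these sources, so p-values measure only the spread between these libraries.

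Tadpoles of NF50 have little circulating thyroid hormone, and the hormone reaches its peak at the climax, when the tail is resorbed and the nervous system is rebuilt for life on land. The hormone enters cells through membrane transporters and is activated or destroyed by deiodinases. It binds receptors that sit on DNA as partners of retinoid X receptors. Without hormone these receptors hold corepressors on their target genes, and with hormone they exchange them for coactivators.

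Levels are given as CPM, a gene's count scaled to a common library size with TMM factors, which compare libraries for 1 gene but not genes of different length. Fold changes are log2 of NF62 over NF50 with a standard error (SE), both taken from a quasi-likelihood fit in edgeR, and p-values are Benjamini-Hochberg adjusted over 19584 gene models. A gene is said to have risen or fallen only where this p was below 0.05. Total expected counts were 24757233, 25551912 and 22601004 in the NF62 libraries and 20934082, 25482414 and 21997851 in the NF50 libraries.

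At NF62, 3342 gene models had risen (17.1% of those tested) and 3507 had fallen (17.9%), together 35.0%. On the scale of the deposited TPM, a level per gene length and library, limma called 3102 rises and 882 falls, and on TPM rescaled to named models, an alternative added after seeing the data, 5314 rises and 2182 falls. Many changes were small, and 1497 of the rises and 1122 of the falls were below 0.5 on the log2 scale. Changes of at least 2-fold were 576 rises (2.94%) and 1119 falls (5.71%), and 34 rises and 98 falls exceeded 3 on the log2 scale. In 4410 models (22.5%) the 3 NF62 libraries all lay above the NF50 libraries, and in 4769 (24.4%) they all lay below. Names were at hand for 2364 of the models that rose and 2571 of those that fell. In bulk RNA, fewer cells of a type and less RNA of a gene per cell cannot be told apart.

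**Figure D1:**
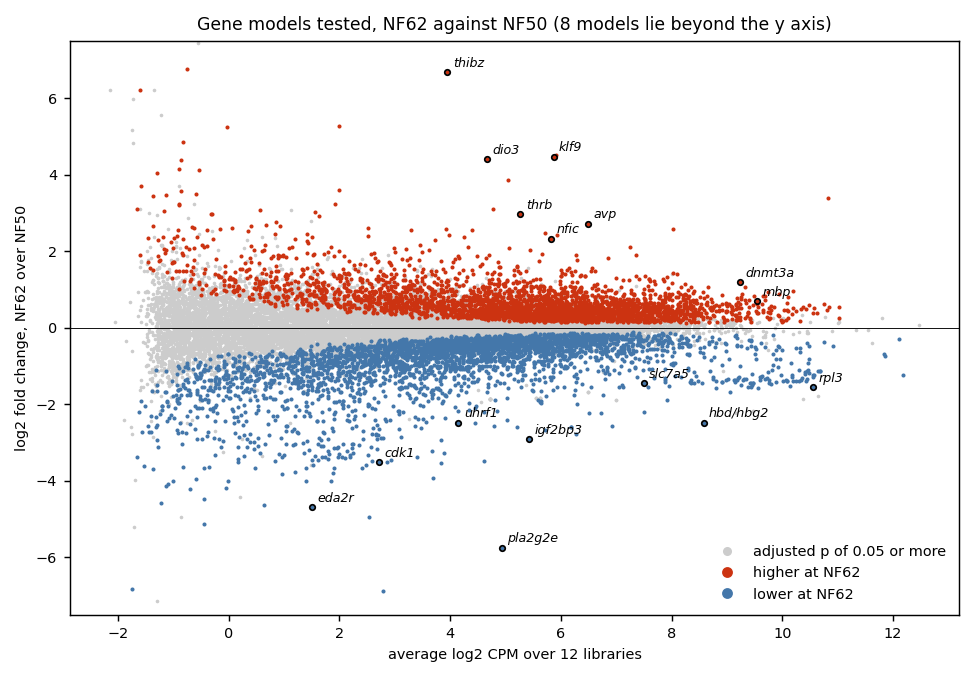
Log2 fold change of NF62 over NF50 (vertical axis) against average log2 CPM over the 12 libraries (horizontal axis) for the models tested, with rises in red, falls in blue and the rest in grey. Labelled genes are described in the text, from thibz at 6.67 at the top to pla2g2e at -5.75 at the bottom, and 8 models lie beyond the vertical axis.

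Some libraries stood apart. On the leading principal component (38.7% of the variance of log2 CPM) NF62 replicates 1, 2 and 3 lay at 46.3, 2.88 and 44.7, against -62.6, -39.9 and -72 for NF50 replicates 1, 3 and 4, so NF62 replicate 2 lay nearest to NF50. The next component (27.2%) split libraries within the stages. There NF62 replicates 1, 2 and 3 lay at 7.59, -54.6 and 14.6. On the same component NF50 replicates 1, 3 and 4 lay at 2.86, 38.6 and -8.55. Unnamed models under 1000 bases held 24.6%, 32.5% and 24.7% of the deposited TPM in the NF62 libraries, against 28.9%, 25.2% and 52.0% in the NF50 libraries, with NF50 replicate 4 above the rest. On the deposited TPM scale, with no further scaling, the median log2 fold change of all models was 0.28 in place of 0.01, so falls below are relative to the other genes. Of 12 matched markers of the preoptic area, hypothalamus and thalamus, sim1 and rax were below 1 CPM in all 6 libraries and the other 10 were detected, tcf7l2 at 527 to 677 CPM at NF62 and 586 to 637 CPM at NF50. Summed over 3 markers, red blood cell RNA stood at 134 to 173 CPM at NF62, against 677 to 971 CPM at NF50, and pituitary RNA, summed over 5 markers, at 24.1 to 47.9 CPM at NF62, against 41.5 to 77.9 CPM at NF50. Markers of microglia (30.5 to 35.5 CPM at NF62, against 27.3 to 32.8 CPM at NF50) and of the retina (5.69 to 9.25 CPM at NF62, against 6.7 to 10.3 CPM at NF50) overlapped between the stages, rhodopsin (rho) and the choroid plexus transthyretin (ttr) were below 1 CPM in all 6, and the 3 vessel markers summed to 69.6 to 82.9 CPM at NF62, against 47.9 to 53.9 CPM at NF50. That sum was mostly pecam1, which rose (0.79 ± 0.11), while cdh5 fell (-0.51 ± 0.15, adjusted p = 0.021 by edgeR) and kdr did not pass (-0.41 ± 0.23). The part of these cells in the differences below was not tested.

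Genes of thyroid hormone action stood high among the named rises. The gene thibz, which codes for a basic leucine zipper transcription factor induced by the hormone in tadpoles, sat on a pair of gene models. The first (XLOC_028082) had 48.7, 59.2 and 49.5 CPM in the NF62 libraries, against 0.745, 0.078 and 0.782 CPM in the NF50 libraries. All 3 NF62 libraries lay far above the barely detected level of NF50, and the log2 fold change was 6.67 ± 0.47 (SE; adjusted p = 2.3e-06 by edgeR's quasi-likelihood test). The other model (XLOC_028061) had 15.8, 9.05 and 11.3 CPM at NF62, against 0, 0.624 and 0.244 CPM at NF50, and rose by 5.27 ± 0.75 on the log2 scale (adjusted p = 0.00026).

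The Krüppel-like transcription factor gene klf9, a direct target of the hormone receptors in frogs and mammals, had 162, 86.2 and 159 CPM in NF62 replicates 1, 2 and 3, against 6.51, 6.74 and 5.08 CPM at NF50. NF62 replicate 2 had the lowest of the 3 climax values, and all 3 lay far above NF50 (log2 fold change 4.47 ± 0.35, adjusted p = 4.4e-06 by edgeR). The deiodinase gene dio3, whose enzyme inactivates the hormone, had 58.1, 61 and 56.8 CPM at NF62, against 3.03, 3.12 and 2.05 CPM at NF50. The NF62 libraries agreed closely here, replicate 2 included, and dio3 rose by 4.41 ± 0.18 (adjusted p = 8.6e-08). The receptor gene thrb, which is itself induced by the hormone in tadpoles, had 79.8, 63.4 and 84.2 CPM at NF62, against 9.14, 11.2 and 8.75 CPM at NF50 (2.96 ± 0.16, adjusted p = 4.8e-07).

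The course over the 4 stages differed between these genes. Between NF56 and NF62, 9.94% of all models rose and 8.97% fell, and from NF62 to NF66 1.38% rose and 1.79% fell. In the earlier interval dio3 and the first thibz model rose steeply (4.13 ± 0.18 and 6.04 ± 0.45), while klf9 and thrb gained 2.37 ± 0.31 and 2.05 ± 0.15 on the log2 scale, each with an adjusted p below 0.05. From NF62 to NF66 the first thibz model fell by 2.89 (SE 0.36, adjusted p = 0.0039 by edgeR), dio3 fell by 0.68 (SE 0.15, adjusted p = 0.034) and thrb fell by 0.61 (SE 0.14, adjusted p = 0.045). The change of klf9 over the same interval was -1.07 ± 0.30 and did not pass (adjusted p = 0.084 by edgeR).

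**Figure D2:**
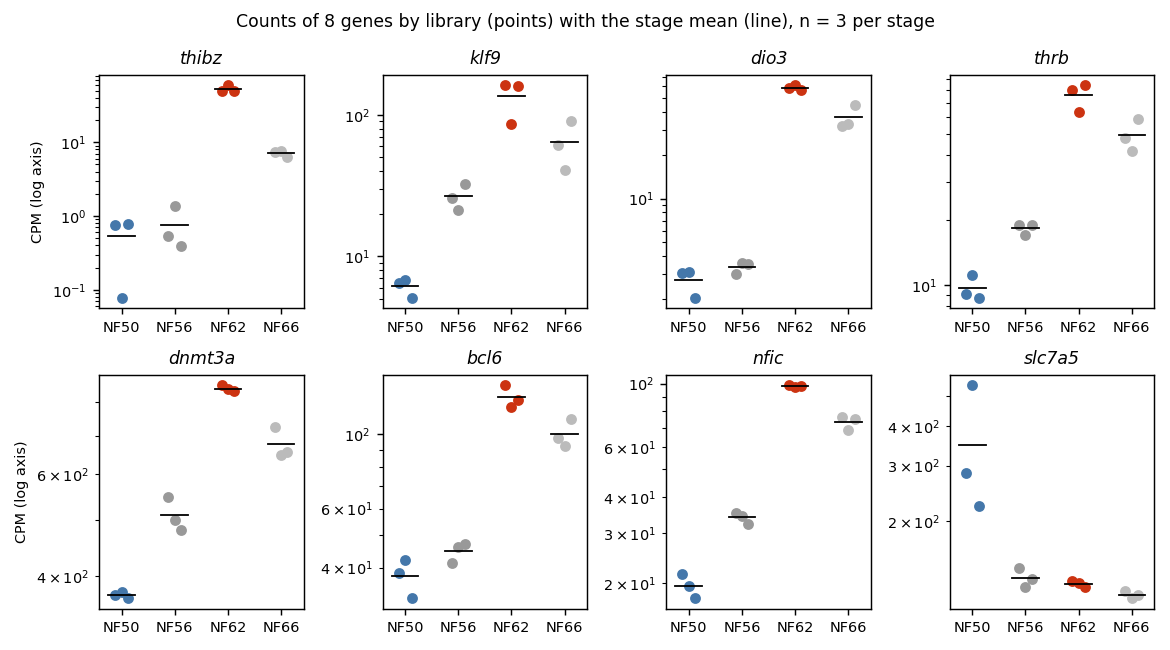
CPM on a log axis in each library (points) with the stage mean (line) for 8 genes at NF50, NF56, NF62 and NF66, 3 libraries per stage. The genes thibz, klf9, dio3, thrb, dnmt3a, bcl6 and nfic had their highest stage mean at NF62, and slc7a5 was highest at NF50, where replicate 3 stood at 539 CPM.

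The other receptors moved less. The retinoid X receptor gene rxrb rose slightly, and the libraries of each stage lay close together (85.3, 86.8 and 86.3 CPM at NF62, against 72.5, 72.6 and 72.9 CPM at NF50; 0.25 ± 0.04, adjusted p = 0.00091). Neither rxra (0.36 ± 0.16, adjusted p = 0.12) nor rxrg (0.03 ± 0.16, adjusted p = 0.92) passed edgeR's test. A model named thra (XLOC_033477) had 0.53 to 0.856 CPM at NF62 and 0.468 to 1.08 CPM at NF50. Whether that model covers the whole gene of the alpha receptor was not analysed here.

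Among 16 receptor cofactors tested, 3 rose and 2 fell, shares close to those of all models, and 0 fell on both TPM scales. The corepressor gene ncor1 had 166 to 186 CPM at NF62 and 156 to 167 CPM at NF50 and did not pass (0.15 ± 0.06, adjusted p = 0.11 by edgeR). The coactivator gene ncoa3 had 159, 73.2 and 194 CPM in NF62 replicates 1, 2 and 3, against 51.7, 60.5 and 32.8 CPM at NF50. Replicate 2 of NF62 lay close to NF50 here, and the rise was 1.55 ± 0.39 (adjusted p = 0.0097). The arginine methyltransferase coactivator gene carm1 fell by 0.40 (SE 0.06, adjusted p = 0.00062), a call lost on both TPM scales.

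Of 9 genes of transport, deiodination and binding, 5 rose and 3 fell, or 1 on the TPM scale. Besides dio3, the rises include crym, whose product holds the hormone in the cytosol (10.3 to 12.8 CPM at NF62, against 4.25 to 4.92 CPM at NF50; 1.37 ± 0.13, adjusted p = 1.8e-05), and the organic anion transporter genes slco4a1 (1.83 ± 0.18) and slco3a1 (0.68 ± 0.06). The falls were of amino acid exchangers that also carry the hormone. Their shared heavy chain slc3a2 had 254, 284 and 237 CPM at NF62, against 565, 677 and 473 CPM at NF50 (-1.15 ± 0.11, adjusted p = 2.3e-05). The light chain slc7a5 had 129, 127 and 124 CPM at NF62, against 284, 539 and 223 CPM in NF50 replicates 1, 3 and 4 (-1.46 ± 0.25, adjusted p = 0.00085, lost on the TPM scale), and slc7a8 fell by 0.77 (SE 0.06). The genes dio1, slco1c1 and hr were not analysed here.

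Of 25 genes known to respond to the hormone in tadpole tissues, 11 rose and 9 fell, or 4 on the TPM scale. Beyond those above, the transcriptional repressor gene bcl6 had 140, 121 and 127 CPM at NF62, against 38.5, 42 and 32.4 CPM at NF50 (1.78 ± 0.11, adjusted p = 8.7e-07). The matrix metalloprotease gene mmp11, induced in the remodelling tadpole gut, had 11.2, 11.9 and 11.3 CPM at NF62, against 4.27, 3.62 and 5.33 CPM at NF50 (1.38 ± 0.17), and fell again from NF62 to NF66 by 1.22 (SE 0.16, adjusted p = 0.0058). Of the 9 falls, 6 were on models with a single gene name, and the lowest log2 fold change in the list was -3.30. The other 3 were on gene models merged with another gene, among them cebpd with rps20 and timp2 with rpl27, whose reads may be of the ribosomal protein gene.

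The nuclear factor I genes code for transcription factors that steer glial and late neuronal differentiation, and all 4 rose (median 1.43 on the log2 scale, against 0.01 for all models). The gene nfic had 98.5, 97.5 and 98.1 CPM at NF62, against 21.5, 19.5 and 17.7 CPM at NF50 (2.33 ± 0.08, adjusted p = 4.2e-08). The gene nfix had 232, 200 and 216 CPM at NF62, against 51.9, 45.8 and 52.5 CPM at NF50 (2.11 ± 0.12, adjusted p = 6.1e-07). The changes of nfib (0.75 ± 0.19) and nfia (0.57 ± 0.07) were smaller. For nfia the rise lay before NF56, since NF62 against NF56 gave -0.07 ± 0.07 (adjusted p = 0.55 by edgeR).

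Genes of DNA methylation moved apart. The de novo methyltransferase gene dnmt3a had 855, 843 and 836 CPM at NF62, against 370, 375 and 366 CPM at NF50, and rose by 1.19 ± 0.06 (adjusted p = 3.5e-07). The maintenance methyltransferase gene dnmt1 had 44.8, 40.8 and 43.6 CPM at NF62, against 68.7, 67.4 and 64.9 CPM at NF50 (-0.64 ± 0.07, adjusted p = 6.5e-05, lost on the TPM scale). Its partner gene uhrf1, needed to keep methylation through replication, had 6.18, 8.19 and 8.04 CPM at NF62, against 41.8, 38.5 and 45.1 CPM at NF50 (-2.48 ± 0.15, adjusted p = 9.5e-07). Within the 22 genes tested, 2 rose and 11 fell, with 1 fall on the TPM scale. The other rise was of zbtb38, a reader of methylated DNA, by 0.36 ± 0.08. The stress gene gadd45g, linked to demethylation, fell by 0.75 (SE 0.15), whereas tet2, whose enzyme oxidises methylcytosine, did not pass edgeR's test (0.07 ± 0.06, adjusted p = 0.39). The DNA ligase gene lig1, which also fell (-1.18 ± 0.16), shares its model with atf5.

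Of 43 Polycomb and histone methylation genes, 3 rose and 13 fell. On the TPM scale 1 fell, on rescaled TPM 13 rose and 7 fell, and their median of -0.03 became 0.29 on the TPM scale and 0.03 with no scaling factor. The Polycomb subunit gene cbx6 had 415, 357 and 421 CPM at NF62, against 139, 171 and 140 CPM at NF50 (1.41 ± 0.12, adjusted p = 6.9e-06). The histone demethylase gene kdm7a had 87.9, 138 and 78.2 CPM in NF62 replicates 1, 2 and 3, against 160, 209 and 208 CPM at NF50, again with NF62 replicate 2 nearest to NF50 (-0.92 ± 0.22, adjusted p = 0.0078, lost on the TPM scale). The Polycomb methyltransferase gene ezh2 had 23.1 to 26.7 CPM at NF62, against 44.2 to 48.2 CPM at NF50 (-0.87 ± 0.10).

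Genes of cell division fell almost together. Of 52 genes of mitosis and chromosome segregation, 48 fell and 2 rose (median -2.34). Both rises were on models merged with other genes (plk1 with ndufab1 and atp6v0c, ncapd2 with snou85), and among the 49 models with a single gene name 48 fell and 0 rose by edgeR. The remaining single-gene model, e2f1, gave 0.15 and did not pass.

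The kinase gene cdk1, which drives entry into mitosis, had 1.54, 1.43 and 1.8 CPM at NF62, against 17.9, 16.5 and 20.6 CPM at NF50 (-3.52 ± 0.32, adjusted p = 1.2e-05). The kinesin genes kif20a (-3.59 ± 0.25) and kif23 (-3.46 ± 0.15), which act in cytokinesis, the condensin gene smc2 (-3.51 ± 0.17) and the chromosomal passenger gene cdca8 (-3.68 ± 0.32) fell by like amounts. Each was below 3 CPM in every NF62 library. The proliferation antigen gene mki67 changed less (40.3, 34.8 and 45.7 CPM at NF62, against 69.4, 86.9 and 70 CPM at NF50, -0.91 ± 0.12, adjusted p = 0.00014, lost on the TPM scale).

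Of 44 genes of DNA replication, 34 fell and 2 rose, with a median of -0.79; on the TPM scale 14 fell. The ribonucleotide reductase gene rrm2.1, which makes DNA precursors and was named for its size of change, had 0.475, 0.489 and 0.856 CPM at NF62, against 17.3, 18.9 and 20.3 CPM at NF50 (-4.95 ± 0.58, adjusted p = 7.1e-05). The histone chaperone gene chaf1b fell by 3.37 (SE 0.26), and the clamp gene pcna, on a model shared with figla, fell by 1.38 (SE 0.08). The genes mcm4 and mcm2, both of subunits of the replicative helicase, went opposite ways. The gene mcm4 had 2.85, 1.83 and 2.48 CPM at NF62, against 19.6, 18.9 and 14.9 CPM at NF50 (-2.89 ± 0.18), while mcm2 had 230, 240 and 217 CPM at NF62, against 159, 151 and 152 CPM at NF50, a rise of 0.57 ± 0.05 (adjusted p = 7.3e-06). The other rise was on the model shared by rnaseh2a and mast1.

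**Figure D3:**
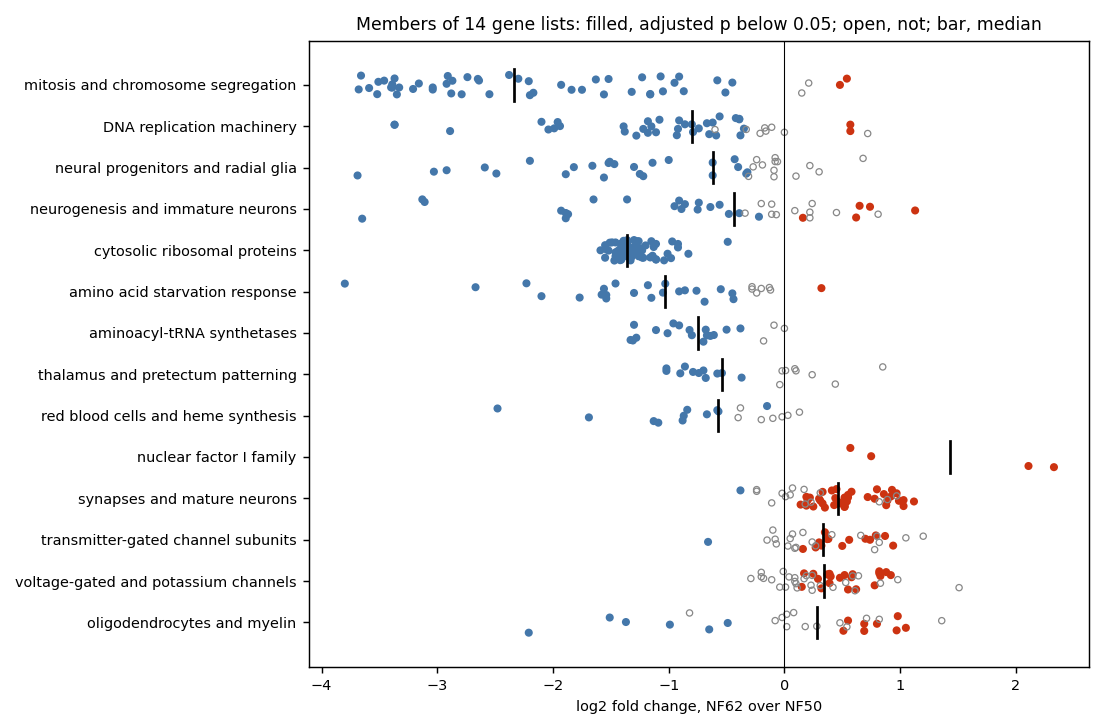
Log2 fold change of NF62 over NF50 (horizontal axis) for each tested member of 14 gene lists, filled where the adjusted p was below 0.05 and open where it was not, with the list median as a black bar. The medians run from -2.34 for mitosis to 1.43 for nuclear factor I genes, and all 74 ribosomal protein models are filled and lie below 0.

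Neural progenitor and radial glia genes fell in 24 of 37 cases and rose in 0 by edgeR (median -0.62). The intermediate filament genes of progenitors were among them. The gene nes had 12.8, 8.4 and 13.3 CPM at NF62, against 65.5, 87.3 and 54.3 CPM at NF50 (-2.59 ± 0.31, adjusted p = 7.4e-05), and vim had 79.1, 86.4 and 79.8 CPM at NF62, against 370, 369 and 385 CPM at NF50 (-2.20 ± 0.05, adjusted p = 2.5e-09). The RNA-binding protein gene igf2bp3, typical of fetal tissue, had 11, 16.3 and 12.6 CPM at NF62, against 107, 86.2 and 108 CPM at NF50 (-2.92 ± 0.19). The brain lipid-binding protein gene fabp7 fell by 1.89 (SE 0.06). Not every progenitor gene followed. The gene sox2, a stem cell transcription factor, moved little, with 105, 100 and 98.5 CPM at NF62, against 140, 128 and 110 CPM at NF50 (-0.32 ± 0.09, adjusted p = 0.015). That call was lost without NF50 replicate 1, without NF62 replicate 3, with no scaling factor and on both TPM scales, and on the deposited TPM scale its value was 0.02.

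Notch signalling lets neighbouring progenitors hold each other back from differentiation. Of 22 Notch ligands, receptors and modifiers, 8 fell, or 5 on the TPM scale, and 0 rose by edgeR, and the median of -0.19 became 0.12 on the TPM scale. The falls were of all 4 ligands tested and of notch1, notch3, lfng and rbpj. The ligand gene dlc had 3.13, 3.34 and 3.81 CPM at NF62, against 34.2, 29.9 and 32 CPM at NF50 (-3.22 ± 0.11, adjusted p = 4.2e-08), and dll1 had 13.1, 13.3 and 16.7 CPM at NF62, against 52.2, 51.8 and 56.3 CPM at NF50 (-1.89 ± 0.09). The fringe gene lfng, whose enzyme adds sugars to Notch, fell by 1.47 (SE 0.20). The Notch-responsive repressor genes hes3.3 (-3.03 ± 0.18) and hes5.1 (-2.49 ± 0.12) fell as well.

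Of 36 genes of neurogenesis and immature neurons, 20 fell and 5 rose (median -0.43), and 9 fell on the TPM scale. The falls included the proneural genes atoh1 (1.15 to 1.35 CPM at NF62, against 4.01 to 5.31 CPM at NF50; -1.87 ± 0.29) and neurod4 (-1.89 ± 0.36). The rises were of neurod2, dpysl5, gap43, ncam1 and myt1l, which act in growing or maturing neurons, by 0.16 to 1.13 on the log2 scale, and 3 rises were called without NF50 replicate 1, 3 or 4 or NF62 replicate 1.

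Genes of mature neurons rose by less but in large number. The synaptic list counted 40 rises and 1 fall among 55 genes (median 0.46). The single fall was on the model shared by pvalb and adsl (-0.38 ± 0.12), and it was lost when any of 4 libraries was left out. The complexin gene cplx1, which clamps vesicle fusion, had 1546, 1561 and 1535 CPM at NF62, against 797, 817 and 761 CPM at NF50 (0.97 ± 0.05, adjusted p = 2.8e-07). The calcium buffer gene calb1 (1.03 ± 0.10) and the neuronal surface gene thy1 (1.03 ± 0.08) rose by like amounts. The vesicle calcium sensor gene syt2 had 30.3, 18.1 and 29.1 CPM in NF62 replicates 1, 2 and 3, against 9.69, 16.1 and 9.68 CPM in NF50 replicates 1, 3 and 4 (1.12 ± 0.31), with replicate 2 of NF62 and replicate 3 of NF50 closest to each other, and its call was lost when any of 4 libraries was left out.

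Of 34 transmitter-gated channel subunits, 14 rose and 1 fell, a nicotinic subunit gene (chrna5, -0.66 ± 0.16), with 9 rises without NF50 replicate 3, NF50 replicate 4 or NF62 replicate 1 and 22 on rescaled TPM. Of 48 voltage-gated and potassium channel genes, 21 rose and 0 fell by edgeR. The AMPA receptor gene gria4 had 148, 139 and 140 CPM at NF62, against 75.7, 79.7 and 66.4 CPM at NF50 (0.94 ± 0.08, adjusted p = 7e-06). The GABA receptor gene gabra3 had 329, 304 and 324 CPM at NF62, against 185, 196 and 171 CPM at NF50 (0.79 ± 0.07). Among the channels of excitability, the sodium channel subunit gene scn4b rose by 0.88 ± 0.10 and the low-threshold calcium channel gene cacna1g by 0.83 ± 0.17.

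Oligodendrocyte genes moved in both directions. Of 27 oligodendrocyte genes, 8 rose and 6 fell, or 3 on the TPM scale. These were shares of 29.6% and 22.2%, beside 17.1% and 17.9% of all models, so the falls lay near the share of all models. The myelin basic protein gene mbp had 862, 774 and 885 CPM at NF62, against 525, 545 and 487 CPM at NF50 (0.69 ± 0.08, adjusted p = 8.5e-05). The myelin glycoprotein gene mag rose by 0.98 ± 0.21. The falls include the transcription factor gene nkx6-2 (4.12, 5.38 and 2.99 CPM at NF62, against 11.6, 11.5 and 12.6 CPM at NF50; -1.51 ± 0.20), the early lineage gene enpp6 (-1.37 ± 0.19) and myoc (-2.21 ± 0.22). Among 15 proteins of myelin, astroglia and matrix that modulate nerve regrowth, 7 genes rose, among them the Nogo receptor gene rtn4r (0.64 ± 0.14), and 1 fell. The fall was of the matrix proteoglycan gene vcan, with 42.5, 37.9 and 40.8 CPM at NF62, against 112, 108 and 101 CPM at NF50 (-1.41 ± 0.11, adjusted p = 4.6e-06).

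**Figure D4:**
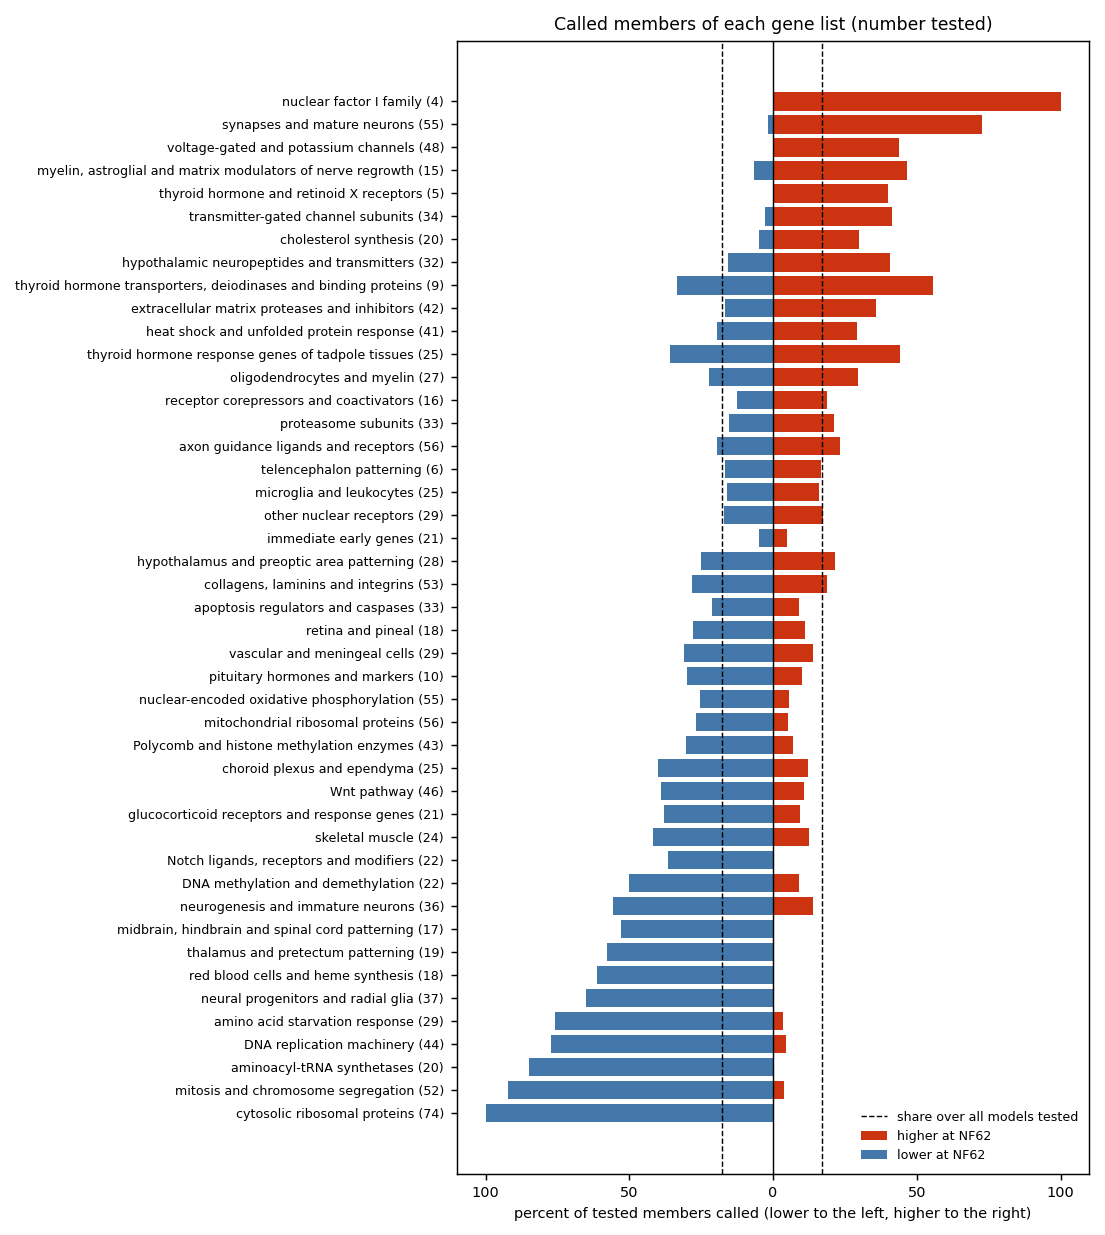
Percent of tested members (number in brackets) of each of 45 gene lists that rose (red, to the right) or fell (blue, to the left) at NF62 against NF50, with dashed lines at the shares over all models, 17.1% and 17.9%. Ribosomal, mitotic and tRNA synthetase genes lie at the blue end and nuclear factor I, synaptic and channel genes at the red end; on the TPM scale the median of 11 of the lists between these ends changed sign.

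Hypothalamic neuropeptide and transmitter genes rose in 13 and fell in 5 of 32 cases, or fell in 2 on the TPM scale and 3 on rescaled TPM. The vasotocin precursor gene avp had 139, 176 and 123 CPM at NF62, against 25.9, 18.4 and 22.5 CPM at NF50, a rise of 2.72 ± 0.24 (adjusted p = 1.1e-05). The gene oxt, whose frog peptide is mesotocin, had 114, 116 and 99 CPM at NF62, against 52.9, 51.8 and 61.1 CPM at NF50 (0.99 ± 0.21, adjusted p = 0.0041). The gonadotropin-releasing hormone gene gnrh1 had 2.46, 2.04 and 2.65 CPM at NF62, against 0.745, 0.702 and 0.44 CPM at NF50 (1.91 ± 0.31, adjusted p = 0.0006). The appetite peptide gene cartpt went the other way, with 6.69, 7.54 and 5.65 CPM at NF62, against 23.3, 20.9 and 22 CPM at NF50 (-1.73 ± 0.21, adjusted p = 8e-05), as did the histamine synthesis gene hdc (-1.50 ± 0.30) and crhbp (-0.70 ± 0.17, lost on the TPM scale), whose product binds corticotropin-releasing hormone. The thyrotropin-releasing hormone gene trh had 167, 138 and 151 CPM at NF62, against 179, 174 and 161 CPM at NF50 and did not pass (-0.17 ± 0.09, adjusted p = 0.16 by edgeR), nor did the dopamine synthesis gene th (-0.34 ± 0.15, adjusted p = 0.096) or pomc (-0.65 ± 0.31, adjusted p = 0.13). The pituitary genes gh1 and prl.1 are secreted-hormone genes of a neighbouring gland. The first had 12.2, 13.1 and 22.1 CPM at NF62, against 59.8, 51.3 and 28.3 CPM at NF50 (-1.56 ± 0.28, lost on the TPM scale), and the other 6.57, 5.18 and 11 CPM at NF62, against 3.08, 3.47 and 2.59 CPM at NF50 (1.31 ± 0.39, lost without NF50 replicate 1, NF50 replicate 4 or NF62 replicate 3). The pituitary marker tshb was below 1 CPM in all 6 libraries.

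Regional transcription factor genes differed by region. Of 19 genes that pattern the thalamus and pretectum, 11 fell and 0 rose by edgeR (median -0.54), and on the TPM scale 2 fell. Among them otx2 had 32.2, 35.6 and 38.5 CPM at NF62, against 74.1, 67.8 and 74.3 CPM at NF50 (-1.02 ± 0.08, adjusted p = 3.1e-06), and irx3 (-1.02 ± 0.10) and barhl2 (-0.90 ± 0.12) fell similarly. Of 17 midbrain, hindbrain and spinal cord models, 9 fell, or 5 without NF50 replicate 1 or NF62 replicate 3 and 1 on the TPM scale, and their Hox genes were below 7 CPM in all 6 libraries. Of 28 hypothalamic and preoptic patterning genes, 6 rose and 7 fell, with 2 rises without NF50 replicate 3, NF50 replicate 4 or NF62 replicate 1, and 2 falls on the TPM scale. These were shares of 21.4% and 25%, beside 17.1% and 17.9% of all models. The homeobox gene gsx1 had 4.75, 3.83 and 4.54 CPM at NF62, against 14.4, 10.1 and 11.6 CPM at NF50 (-1.45 ± 0.16). The interneuron gene lhx6 had 17.5, 4.48 and 15.5 CPM in NF62 replicates 1, 2 and 3, against 2.88, 3.2 and 2.88 CPM at NF50 (2.06 ± 0.60, adjusted p = 0.02), a call lost when any library other than NF62 replicate 2 was left out. The telencephalic gene emx2, which marks a neighbouring part of the brain, had 17.3, 21.2 and 18.4 CPM at NF62, against 31.9, 29.9 and 32.5 CPM at NF50 (-0.73 ± 0.09).

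Cytosolic ribosomal protein genes fell without exception under edgeR's test. All 74 models tested were lower at NF62, with a median of -1.36 and a range of -1.59 to -0.49, and in all 74 the NF62 libraries lay below every NF50 library. Many of these genes share a model with a neighbour, and the 43 models with a single gene name all fell too. The gene rpl3 had 869, 1026 and 896 CPM at NF62, against 2765, 2473 and 2929 CPM at NF50 (-1.55 ± 0.09, adjusted p = 9e-07), and rps19 had 409, 564 and 396 CPM at NF62, against 1447, 1134 and 1549 CPM at NF50 (-1.59 ± 0.20). NF62 replicate 2 was the highest of the climax libraries and NF50 replicate 3 the lowest of the earlier ones in both. The median list level relative to the NF50 mean was -1.46, -1.08 and -1.50 in NF62 replicates 1, 2 and 3, against 0.08, -0.21 and 0.13 in NF50 replicates 1, 3 and 4. Mitochondrial ribosomal protein genes fell in 15 and rose in 3 of 56 cases, or fell in 0 on the TPM scale by limma and in 5, with 8 rises, on rescaled TPM, with a median of -0.19 that became 0.14 on the TPM scale, and 6 to 8 falls were called without NF50 replicate 1 or 3 or NF62 replicate 1 or 3.

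Genes of amino acid supply fell as well. Of 29 genes of the response to amino acid starvation, 22 fell and 1 rose (vldlr, 0.32 ± 0.06), with a median of -1.03, and 8 fell on the TPM scale. The amino acid transporter gene slc7a3 had 20.3, 20.2 and 19.9 CPM at NF62, against 117, 190 and 76.3 CPM in NF50 replicates 1, 3 and 4 (-2.67 ± 0.26, adjusted p = 1.9e-05). The folate enzyme gene mthfd2 had 47.9, 43.6 and 44.9 CPM at NF62, against 211, 265 and 161 CPM at NF50 (-2.23 ± 0.16). The glutathione-degrading enzyme gene chac1 had 0.871, 0.489 and 1.11 CPM at NF62, against 11.5, 22.1 and 0.782 CPM at NF50, so that NF50 replicate 4 lay within the NF62 range (-3.80 ± 0.90, adjusted p = 0.0068). Its call was lost on both TPM scales.

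Of 20 aminoacyl-tRNA synthetases, which charge tRNAs with amino acids, 17 fell and 0 rose by edgeR (median -0.75), 10 fell on TPM rescaled to named models and 2 on the deposited TPM scale. The gene kars had 53, 54.8 and 50.8 CPM at NF62, against 121, 163 and 108 CPM at NF50 (-1.31 ± 0.12, adjusted p = 1.5e-05). The gene mars had 38.8, 39.7 and 39.7 CPM at NF62, against 81.7, 149 and 60.6 CPM at NF50 (-1.30 ± 0.25, lost on the deposited TPM scale). The NF62 libraries were nearly equal in these genes and NF50 replicate 3 was the highest of all. Without that replicate the medians were -0.81 for the starvation response and -0.59 for the synthetases.

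**Figure D5:**
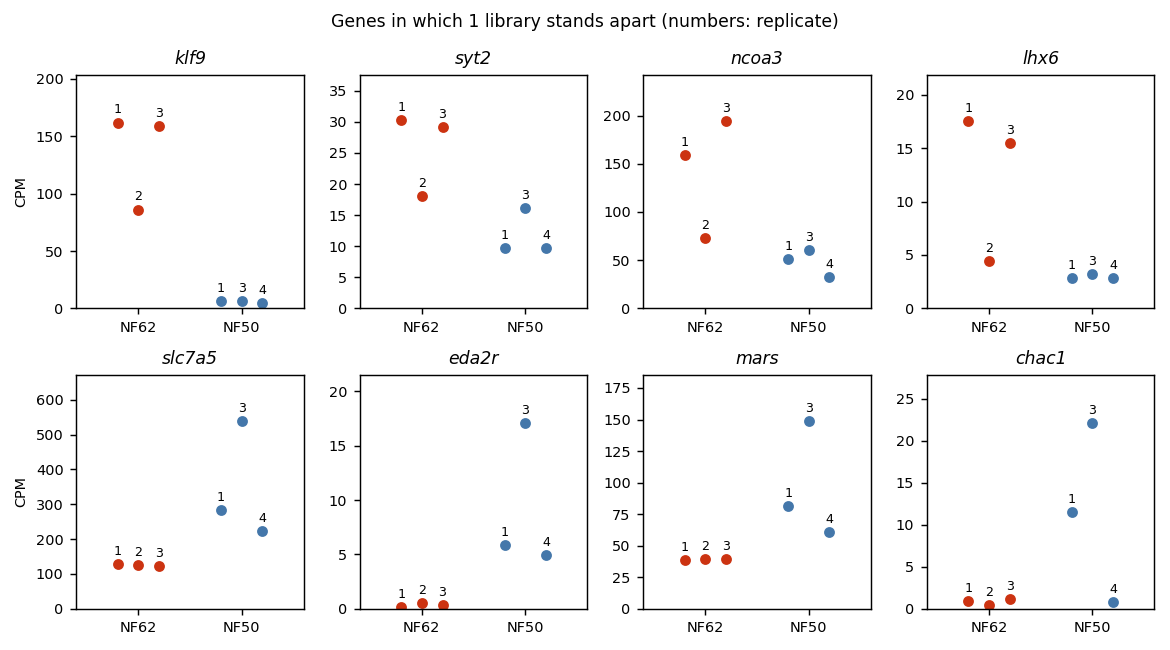
CPM of 8 genes in each library of NF62 (left, red) and NF50 (right, blue), with the replicate number above each point. In klf9, syt2, ncoa3 and lhx6 NF62 replicate 2 lies below replicates 1 and 3, and in slc7a5, eda2r, mars and chac1 NF50 replicate 3 lies above the other NF50 libraries.

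Hormone receptors and stress genes outside the thyroid axis gave single large changes. The mineralocorticoid receptor gene nr3c2 had 44.4, 38.5 and 43 CPM at NF62, against 10.5, 12.6 and 10.3 CPM at NF50 (1.91 ± 0.14, adjusted p = 2.7e-06), while the glucocorticoid receptor gene nr3c1 had 50.1 to 62.1 CPM at NF62 and 44.9 to 54.3 CPM at NF50 (0.12 ± 0.11, adjusted p = 0.43). Of 21 genes of the glucocorticoid list, 2 rose and 8 fell, or 2 on the TPM scale and 5 on rescaled TPM, the rises being nr3c2 and klf9 and the falls including angptl4 (-1.40 ± 0.21, lost on the TPM scale). Of 41 heat shock and unfolded protein genes, 12 rose, or 7 without NF50 replicate 3 and 20 on rescaled TPM, and 8 fell, or 2 on the TPM scale. The endoplasmic chaperone gene pdia4 had 48.2, 33.5 and 45.5 CPM at NF62, against 14.1, 20.2 and 14.5 CPM at NF50 (1.38 ± 0.17, adjusted p = 0.0001). The model named rpl35, rabepk and hspa5 fell (-1.15 ± 0.17) and holds a ribosomal protein gene. Of 20 cholesterol synthesis genes, 6 rose, or 10 on rescaled TPM, and 1 fell, with hmgcs1 at 410, 479 and 418 CPM at NF62, against 260, 194 and 263 CPM at NF50 (0.87 ± 0.16), and with lbr, also a nuclear envelope gene, at 7.52 to 8.51 CPM at NF62, against 18.8 to 20.4 CPM at NF50 (-1.24 ± 0.10).

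Genes of matrix and guidance moved in both directions, beside 17.1% rises and 17.9% falls over all models. Of the matrix proteases and inhibitors 35.7% rose and 16.7% fell. Of the collagens, laminins and integrins 18.9% rose and 28.3% fell. For axon guidance genes the shares were 23.2% and 19.6%, near those of all models. Proteases of the matrix and their inhibitors, 42 in all, gave 15 rises and 7 falls, or 2 falls on the TPM scale. The aggrecanase gene adamts5 had 113, 109 and 107 CPM at NF62, against 46.7, 50.3 and 47.7 CPM at NF50 (1.19 ± 0.07). The related protease gene adamts6 rose too (1.61 ± 0.09). The gelatinase gene mmp9 had 0.356, 0.489 and 0.471 CPM at NF62, against 5.17, 3 and 4.99 CPM at NF50 (-3.30 ± 0.41). Of 53 collagens, laminins and integrins, 10 rose and 15 fell, or 4 on the TPM scale, among the falls col14a1 (-1.76 ± 0.15) and col5a2 (-1.32 ± 0.13). Axon guidance ligands and receptors, 56 in all, gave 13 rises and 11 falls, or 1 fall on the TPM scale and 22 rises and 6 falls on rescaled TPM. The netrin receptor gene unc5d had 231, 201 and 230 CPM at NF62, against 86.1, 93.2 and 81 CPM at NF50 (1.35 ± 0.14), and the netrin gene ntn3 had 11.2, 13.8 and 10.3 CPM at NF62, against 32.4, 27.1 and 27.5 CPM at NF50 (-1.30 ± 0.21). Of 46 Wnt pathway genes, 18 fell, or 5 on the TPM scale, and 5 rose, or 3 without NF50 replicate 1 or 4, the falls including the receptors fzd2 (-1.57 ± 0.14) and fzd10 (-1.51 ± 0.16) and the inhibitor sfrp2 (-1.46 ± 0.13).

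Remaining lists held fewer changes. Of 33 apoptosis genes, 3 rose and 7 fell (median -0.09, or 0.22 on the TPM scale), with 2 falls on the TPM scale and 9 rises and 4 falls on rescaled TPM, among them the pro-apoptotic gene bmf with 11, 13.3 and 13.3 CPM at NF62, against 6.31, 5.96 and 7.48 CPM at NF50 (0.93 ± 0.13). Of 29 further nuclear receptors, 5 rose and 5 fell, or 0 on the TPM scale, with 3 rises without NF50 replicate 4 or NF62 replicate 3. The shares, 17.2% each, lay near the 17.1% and 17.9% of all models. The progesterone receptor gene pgr had 1.47, 1.1 and 1.24 CPM at NF62, against 0.546, 0.468 and 0.587 CPM at NF50 (1.25 ± 0.29), and the oestrogen receptor gene esr1 stayed below 1 CPM in all 6 libraries (2.07 ± 0.61, lost when any of 4 libraries was left out). Of 21 immediate early genes, which respond to neural activity and handling, 1 rose and 1 fell, and libraries of a stage differed widely in them, as in fos with 62, 52.7 and 11.8 CPM in NF62 replicates 1, 2 and 3, against 88.1, 33.9 and 41.9 CPM at NF50. Nuclear genes of oxidative phosphorylation rose in 3 and fell in 14 of 55 cases (median -0.06, or 0.26 on the TPM scale), with 6 to 8 falls without NF50 replicate 1, NF62 replicate 1 or NF62 replicate 3, and 1 rise without NF50 replicate 1, NF50 replicate 4 or NF62 replicate 3. On rescaled TPM 14 of these genes rose and 3 fell. By edgeR the shares were 5.45% rises and 25.5% falls, beside 17.1% and 17.9% of all models. Of the 55 models 14 were shared with another gene, and of the 41 with a single gene name 1 rose and 9 fell. The shared models that fell include rpl17 with atp5a1 (-1.20 ± 0.16) and atp5l with rps25 (-0.97 ± 0.10), which hold ribosomal protein genes. Of 33 proteasome genes 7 rose, or 4 without NF50 replicate 4 and 16 on rescaled TPM, and 5 fell, or 1 to 2 without NF50 replicate 1, NF62 replicate 1 or NF62 replicate 3. Their shares, 21.2% and 15.2%, also lay near those of all models.

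Markers of other cells moved as follows. Of 18 genes of red blood cells and heme synthesis, 11 fell, or 3 on the TPM scale, and 0 rose by edgeR. The model of the beta-type globins hbd and hbg2 had 124, 142 and 158 CPM at NF62, against 760, 653 and 941 CPM at NF50 (-2.48 ± 0.17, adjusted p = 1.8e-06), the model of the alpha-type globins hba3 and hba4 fell by 1.69 (SE 0.25), and alas2, which starts heme synthesis in red blood cells, fell by 1.13 (SE 0.20, lost on the TPM scale). Of 29 vascular and meningeal models, 4 rose and 9 fell, or 2 on the TPM scale, with a median of -0.29 that became 0.03 on the TPM scale. The smooth muscle actin gene acta2 had 6.3, 6.73 and 3.81 CPM at NF62, against 14.1, 15.6 and 19.4 CPM at NF50 (-1.54 ± 0.23), while the endothelial adhesion gene pecam1 rose by 0.79 ± 0.11. Of 25 microglial genes, 4 rose, or 8 on rescaled TPM, and 4 fell, or 0 on the TPM scale, the falls numbering 1 or 2 without NF50 replicate 4, NF62 replicate 1 or NF62 replicate 3. The microglial shares, 16% each, lay near the 17.1% and 17.9% of all models. Among the microglial genes apoe, also made by astroglia, had 40.8, 37.5 and 49.7 CPM at NF62, against 15.9, 11.3 and 15.3 CPM at NF50 (1.59 ± 0.15), and cd74 had 22.6, 56 and 25.1 CPM at NF62, against 17, 17.7 and 16.4 CPM at NF50 (1.02 ± 0.30, or 0.48 without NF62 replicate 2). The call of cd74 was lost without NF50 replicate 1, 3 or 4, with the 6 libraries alone and with the replicate block. Of 25 choroid plexus and ependyma genes, 3 rose and 10 fell, or 4 on the TPM scale, with a median of -0.14 that became 0.12 on the TPM scale, and among the falls were lmx1a (-1.24 ± 0.17) and msx1 (-1.39 ± 0.31). Of 24 skeletal muscle models 3 rose and 10 fell, or 4 on the TPM scale, and 9 of these models were shared with another gene.

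Among named models that averaged at least 5 CPM at NF62 and whose libraries did not overlap, the 15 largest rises hold a set of signalling genes besides those of hormone response. The activin subunit gene inhbb had 9.78, 7.01 and 8.64 CPM at NF62, against 0.546, 1.21 and 0.88 CPM at NF50 (3.24 ± 0.31, adjusted p = 1.8e-05), and fell from NF62 to NF66 by 1.18 (SE 0.28, adjusted p = 0.047). The gene pmepa1, whose product restrains signalling by transforming growth factor beta, had 37.5, 36.4 and 35.2 CPM at NF62, against 6.26, 6.63 and 8.11 CPM at NF50 (2.38 ± 0.13, adjusted p = 6.1e-07). The nucleotide receptor gene p2ry2 (2.60 ± 0.19), the bombesin receptor-like gene brs3 (2.56 ± 0.44), the transcriptional repressor gene nacc2 (2.47 ± 0.16) and the membrane protein gene vstm5 (2.43 ± 0.17) rose too. A model of tmed2, a cargo receptor of early secretion, had 26.5, 34.4 and 29.4 CPM at NF62 and 0 in all 3 NF50 libraries, which makes it at least 219-fold higher against a floor of 3 counts per library. At NF56 this model varied between libraries, with 12.4, 3.06 and 0 CPM in replicates 1, 2 and 3.

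The 15 largest falls by the same rule, with the level at NF50, hold many division genes, with others beside them. The secreted phospholipase gene pla2g2e had 1.43, 2 and 1.84 CPM at NF62, against 102, 58.9 and 122 CPM at NF50 (-5.75 ± 0.36, adjusted p = 1e-06). A model of the adhesion gene cadm4 had 0 in all 3 NF62 libraries, against 17.2, 56.7 and 13.5 CPM at NF50, and was at least 237-fold lower against a floor of 3 counts per library. The gene eda2r, of the tumour necrosis factor receptor family, had 0.198, 0.53 and 0.342 CPM at NF62, against 5.91, 17.1 and 4.94 CPM at NF50 (-4.70 ± 0.55, adjusted p = 7.1e-05). In both cadm4 and eda2r NF50 replicate 3 held the highest value. The gene eef1a1o, an elongation factor gene of the oocyte type in Xenopus, had 1.43, 0.937 and 1.33 CPM at NF62, against 13.8, 16.2 and 16.8 CPM at NF50 (-3.66 ± 0.22). The zinc finger gene znf704 had 4.63, 3.91 and 3.25 CPM at NF62, against 44.5, 48.3 and 39.5 CPM at NF50 (-3.48 ± 0.26), and its level at NF56 averaged 44.4 CPM, so the fall lay between NF56 and NF62 (-3.49 ± 0.26, adjusted p = 2e-05).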

How the data were processed

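RNA-seq was made of 12 libraries, 3 per stage. The authors deposited expected counts, TPM and FPKM values for each gene model, which have the layout of RSEM output per the file headers, and TPM was used only as an alternative scale. Tools listed in the submitters' processing notes are CASAVA 1.8.2, cutadapt, RSEM, Bowtie and DESeq2, with no role for any of them. A genome build was not given in the sources used here, and coordinates are left out for that reason. Of the expected counts, 53.7% were not whole, since reads shared between models had been divided among them, and they were rounded. Of 33875 models 13129 carried a gene name and 385 more than 1, which are written with a slash or named together and whose reads cannot be assigned to either gene. A symbol with several models was taken from the one with the highest mean count. The library preparation is described only as total RNA, and whether counting used strand is not stated there.

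The main test was the quasi-likelihood F test of edgeR 4.0.16 (R 4.3.3) with TMM factors on 19584 models passing filterByExpr (minimum count 10, minimum total 15), which hold 99.93% of the counts. One mean per stage was fitted over the 12 libraries, with no covariate. P-values were Benjamini-Hochberg adjusted over all models at 0.05, and the SE was taken from the fold change and F. The biological coefficient of variation was 18.3%. Counts were also simulated for the 19584 models, and 19316 of them passed the filter again. The procedure recovered 64 of 100 models changed 2-fold and 87 of 100 changed 4-fold with 5 false calls. The simulated spread was drawn independently for each model, unlike deviations that many models of a library share, so the false calls among the real libraries were not measured. Depth limits low models, so a fold against libraries at 0 is a bound against 3 counts per library. Alternatives were DESeq2 1.42.0, other scaling, no filter, no rounding, the 6 libraries alone, each library left out, a replicate block, and limma 3.58.1 on log2(TPM + 1); the last on TPM rescaled to named models was added after seeing the data.

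The members and the 45 gene lists were chosen with earlier results of these data known. Named genes were a set of key genes, the 3 largest changes of each list with 3 or more calls, and the 15 largest rises and falls without overlap that averaged at least 5 CPM in the higher stage. Outside that rule and chosen after their values were seen are slc3a2, slc7a8, slco3a1, zbtb38, ezh2, mmp9, fabp7, vim, hes5.1, notch1, notch3, e2f1, cplx1, chrna5, oxt, gnrh1, emx2, pecam1, vldlr, neurod2, dpysl5, gap43, ncam1 and myt1l. So are pgr, esr1, fos and rbpj, and the merged models of plk1, ncapd2, rnaseh2a, pvalb, cebpd and timp2. Several other genes under this rule are not reported here.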

Additional observations from a re-analysis of the deposited data

How the results depend on the processing

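The counts of rises and falls were within 1.5 times of 3342 and 3507 under DESeq2 (3582 and 3637), other size factors (3424 and 3500), no scaling factor (3726 and 3142), the 6 libraries alone (3302 and 3270) and a block on the replicate number (4313 and 4431). Leaving out 1 library gave 2526 to 3280 rises and 2712 to 3715 falls, with 463 to 702 rises and 1021 to 1254 falls of at least 2-fold. On log2(TPM + 1) with limma 882 models fell, 872 rose at least 2-fold and 434 fell at least 2-fold, and 466 of the calls had the other sign. With TPM rescaled to the named models, 5314 rose and 2182 fell, 648 of them at least 2-fold, and 66 calls had the other sign. The median log2 fold change of all models was 0.28 on the TPM scale and 0.18 after rescaling, in place of 0.01, beside the share of short unnamed models in NF50 replicate 4; its part was not tested. The fold change of sox2 was 0.02 on the TPM scale (adjusted p = 0.95 by limma), the cause was not tested. The labels give no shared animal or batch to a replicate number. Numbers 1 and 3, which both stages hold, gave correlations of deviations of -0.136 and 0.471. Pairs of unlike numbers gave -0.562 to 0.444, so these values do not show a pairing. With the block, 884 models rose at least 2-fold. Of the named genes, 34 lost their call on the TPM scale. Besides those marked above, they include gadd45g, irx3, lhx6, the model of hoxb6 and hoxb3 and the model of lig1 and atf5.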
